A study of Homo sapiens with 12 samples.

Results

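The 9 genes described here decide how pyruvate enters mitochondrial oxidation: the pyruvate dehydrogenase kinases *PDK1*, *PDK2*, *PDK3* and *PDK4*, the phosphatases *PDP1* and *PDP2* that oppose them, *PDHA1*, and the mitochondrial pyruvate carriers *MPC1* and *MPC2*. They were chosen by name, and all 9 were found among the 23705 genes of the count table. The measured material was total RNA of A375, an established human melanoma cell line, after 24 h in 1 of 4 conditions with 3 libraries each. Control cells received the DMSO vehicle alone. The second condition was rosiglitazone (RGZ) at 5 μM, the third was T0070907 at 2 μM, and the fourth, here called the combination, had both at these doses. RGZ is an agonist and T0070907 an antagonist of the nuclear receptor PPARγ, and the study set them against each other to find which effects of RGZ depend on this receptor. Each of 3 independent experiments gave 1 library per condition, made from the pooled RNA of technical replicates. All libraries come from this cell line in serum-containing medium, so they describe a cultured tumor line and not melanocytes or tumors in general.

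Pyruvate made in glycolysis crosses the inner mitochondrial membrane through a carrier built from MPC1 and MPC2. The pyruvate dehydrogenase complex then turns it into acetyl-CoA, the fuel of the citrate cycle, and the kinases PDK1 to PDK4 switch the complex off by phosphorylating its E1 alpha subunit, which *PDHA1* encodes. The phosphatases remove this phosphate and switch the complex on again. In muscle, heart and liver, *PDK4* is known as the kinase gene that is raised in fasting and by PPAR agonists, when cells oxidize fatty acids and spare glucose, whereas *PDK1* is known for its rise in hypoxia.

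Total counts lay between 8319455 and 11375227 per library. The level of a gene is given in CPM, its counts per 1000000 counts of the library after TMM scaling, and 3 counts, the detection floor, correspond to 0.258 to 0.371 CPM. The 9 genes were among the 13522 that passed edgeR's filter on low counts, and their lowest count in any library was 20. In the cell line's marker check, *SOX10* (178 to 429 CPM), *MITF* (24.4 to 59.6 CPM) and *AXL* (383 to 584 CPM) were present, while the pigment genes *TYR*, *DCT*, *MLANA*, *TYRP1* and *PMEL* did not exceed 1.53 CPM in any library. A gene was called when the quasi-likelihood test of edgeR gave a p-value under 0.05 after Benjamini-Hochberg adjustment over all of these genes. Each comparison was fitted with the conditions alone and again with the experiment as a further term, the replicate block, since libraries of 1 experiment tended to lie on the same side of their condition means.

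With RGZ, 3 of the 9 genes changed: the kinase genes *PDK4* and *PDK1* rose and the phosphatase gene *PDP1* fell. The same 3 genes were called with the conditions alone and with the replicate block. Among all tested genes, 1.24% were called for RGZ against vehicle with the conditions alone and 9.30% with the block. In the combination, the 3 genes differed from RGZ alone in the opposite direction. In that comparison 1.24% of all tested genes were called with the conditions alone and 11.4% with the block. None of the 9 was called against vehicle, where 0% of all tested genes were called in either fit.

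**Figure D1:**
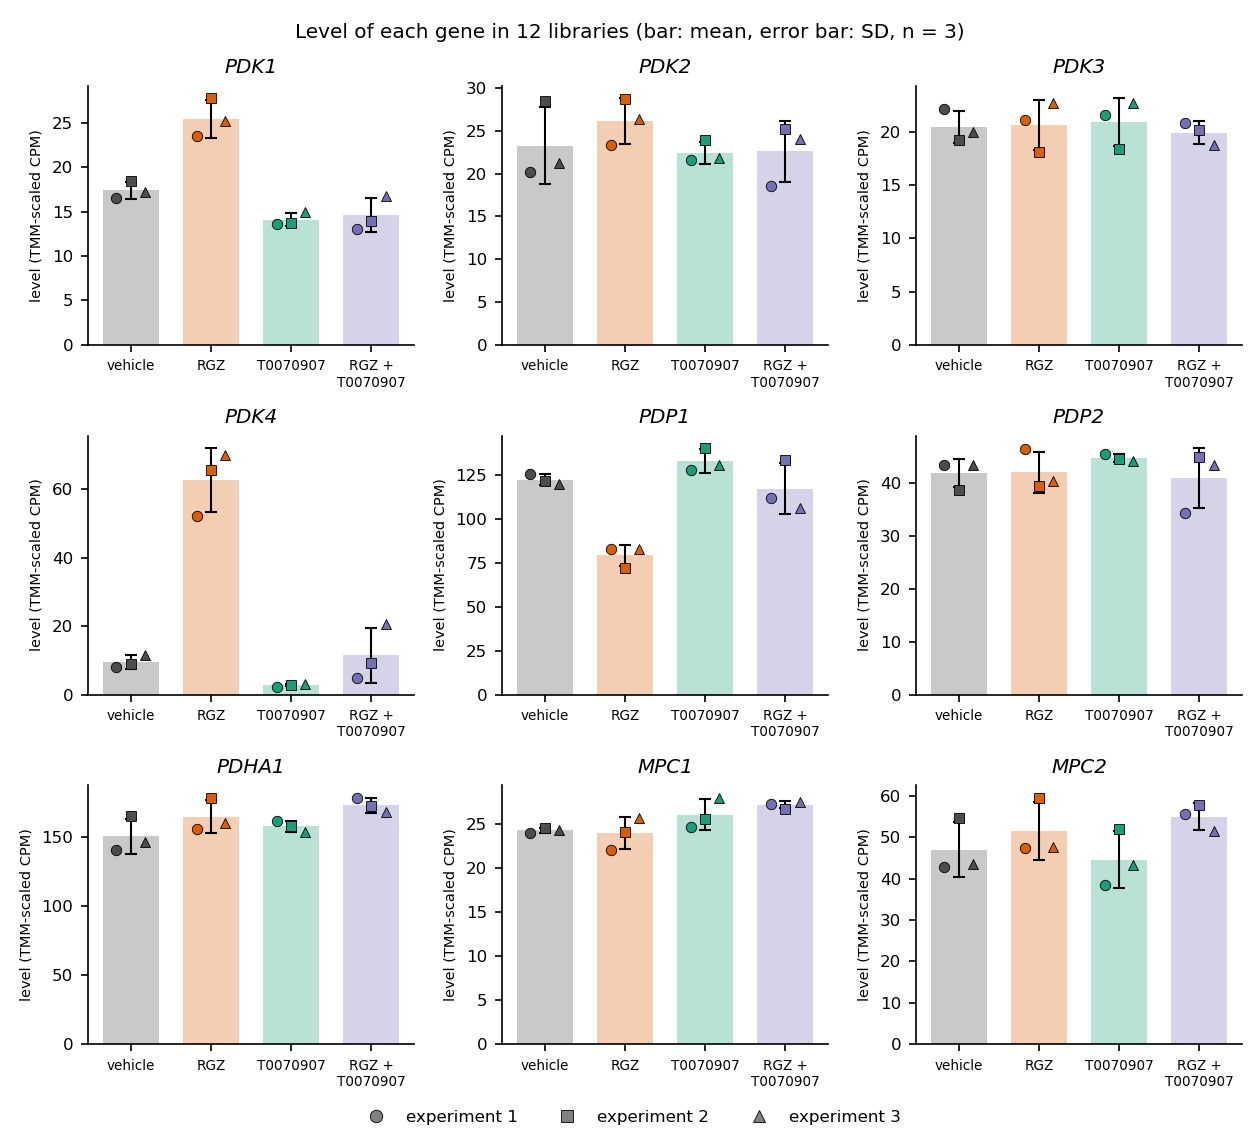
Level of each of the 9 genes in CPM (vertical axes, starting at 0) in the 4 conditions, with a marker for each experiment, a bar for the mean and an error bar for the SD of 3 libraries. The RGZ libraries of *PDK4*, from 52.1 to 70.1 CPM, lie above all others, those of *PDP1*, from 72.4 to 83.1 CPM, lie below all others, and for *PDK1* the RGZ libraries, from 23.5 to 27.7 CPM, lie above all others.

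*PDK4* (NCBI gene 5166, chr7:95583499-95596491 on the minus strand of GRCh38 in GENCODE release 29) had 7.95, 8.92 and 11.6 CPM in the vehicle libraries of experiments 1, 2 and 3. With RGZ the levels were 52.1, 65.8 and 70.1 CPM. The lowest RGZ library was thus far above the highest vehicle library, and the ratio within the experiments was 6.55, 7.37 and 6.02. The log2 fold change was 2.72 (SE 0.37, adjusted p = 0.00461 in edgeR), a 6.59-fold rise of the mean level. With the block it was 2.73 (SE 0.18, adjusted p = 2.33e-08). An exact two-sided permutation test of the 6 values gave p = 0.1, the smallest value that 3 libraries against 3 allow.

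The stretch before the start of *PDK4* is shown because no other of the 9 genes changed by as much. RefSeq promoter entries (GRCh38.p14) were found for 8 of the 9 genes, with 13 start sites in all, among 35116 entries. The 250 bases before the *PDK4* start, at chr7:95596517-95596766 on the minus strand, are written here in lower case with the only match to a searched motif in capitals, a CCAAT box read on the opposite strand, which begins 117 bases before the start.
PDK4: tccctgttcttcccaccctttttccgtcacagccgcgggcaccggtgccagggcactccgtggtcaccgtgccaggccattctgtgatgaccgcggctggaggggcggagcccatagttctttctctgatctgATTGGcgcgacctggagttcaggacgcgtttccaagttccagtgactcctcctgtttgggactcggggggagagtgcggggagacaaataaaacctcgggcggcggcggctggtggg

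Windows of 250 bases before each start were searched on both strands for 5 motifs. CCAAT occurred in 32.0% of all such windows, ACGTG, the core of the hypoxia response element, in 18.5%, AGGTCA, the core element bound by nuclear receptors, in 12.1%, and GTAAACA, a FOXO motif, in 2.98%. AGGTCANAGGTCA, this element repeated with 1 base between, contains AGGTCA by construction and occurred in 0.0171%. No window of the 8 genes held AGGTCA, its repeat or GTAAACA, which says only that these letters are not within this distance of the start. Each of the 8 genes held CCAAT before at least 1 start, and 4 of them held ACGTG: *PDP2* (3 matches), *PDK2* (2) and *PDK3* (1), which were not called for RGZ, and *PDK1* (2). These are counts of genes, and *PDK1*, *PDK2* and *MPC2* had more than 1 window each. They are therefore not a like measure to the shares above, which are of single windows. *PDK1*, the other kinase gene that changed, held ACGTG on the opposite strand 17 and 8 bases before the second of its 2 listed starts. These are the capitals in the last 30 bases before that start, chr2:172556060-172556089 on the plus strand.
PDK1: ccctgctgcccgcCACGTccctCACGTacc

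*PDK1* (NCBI gene 5163, chr2:172555373-172608669, plus strand) had 16.6, 18.4 and 17.2 CPM with vehicle in experiments 1 to 3. With RGZ it had 23.5, 27.7 and 25.2 CPM. All 3 RGZ libraries were above all vehicle libraries, by ratios of 1.42, 1.50 and 1.47 within the experiments. The log2 fold change was 0.55 (SE 0.11, adjusted p = 0.0411 in edgeR). This call is close to the threshold with the conditions alone: it was lost when any of the 6 vehicle and RGZ libraries was left out, with adjusted p-values between 0.0694 and 0.165, and in a fit of only these 2 conditions (adjusted p = 0.0947 in edgeR). With the block the adjusted p was 9.12e-04, and the call was kept without any of the 6 libraries, with adjusted p-values from 0.00311 to 0.0169. *PDK1* shares 445 of its 14883 exon bases with the antisense gene *AC078883.1* on the opposite strand, so some of its counts may belong to that gene.

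The other kinase genes did not pass the test. *PDK2* (NCBI gene 5164, chr17:50094737-50112152, plus strand), which is widely expressed, had 20.2, 28.4 and 21.2 CPM with vehicle and 23.4, 28.7 and 26.4 CPM with RGZ. The conditions overlapped, and in both of them experiment 2 had the highest library. Within each experiment *PDK2* was higher with RGZ, by ratios of 1.16, 1.01 and 1.25. *PDK3* (NCBI gene 5165, chrX:24465221-24541862, plus strand) had 22.1, 19.3 and 20.0 CPM with vehicle and 21.1, 18.2 and 22.7 CPM with RGZ. The log2 fold change was 0.17 for *PDK2* (95% interval -0.16 to 0.49) and 0.01 for *PDK3* (95% interval -0.24 to 0.27). A change of the size of that of *PDK4* is outside both intervals. Reads of *PDK2* may include some from *SAMD14*, which lies on the opposite strand, shares 2113 of the 5481 exon bases of *PDK2* and had 1.50 to 3.04 CPM; whether reads were counted by strand is not given in the sources used here.

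*PDP1* (NCBI gene 54704, chr8:93857807-93926066, plus strand), the catalytic subunit of the calcium-stimulated phosphatase, had 126, 122 and 120 CPM with vehicle. With RGZ it had 83.1, 72.4 and 82.7 CPM. The RGZ libraries all lay below the vehicle libraries, with ratios of 0.661, 0.594 and 0.690 in the 3 experiments. The log2 fold change was -0.62 (SE 0.09, adjusted p = 0.00556 in edgeR), and with the block it was also -0.62 (SE 0.08, adjusted p = 3.70e-05). *PDP1* was called under all 21 alternatives tried for this comparison. RefSeq's table listed no promoter for it, so no sequence is given.

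*PDP2* (NCBI gene 57546, chr16:66878589-66895754, plus strand), the second catalytic subunit, had 43.4, 38.7 and 43.3 CPM with vehicle and 46.3, 39.3 and 40.2 CPM with RGZ. The libraries overlapped, and the log2 fold change was 0.00 (95% interval -0.22 to 0.23). Of the phosphatase genes, therefore, only the more abundant *PDP1* was called among the 3 tested, which were *PDP1*, *PDP2* and the regulatory subunit gene *PDPR* (log2 fold change -0.14, adjusted p = 0.765 in edgeR). The share called over all tested genes was 1.24% with the conditions alone and 9.30% with the block.

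**Figure D2:**
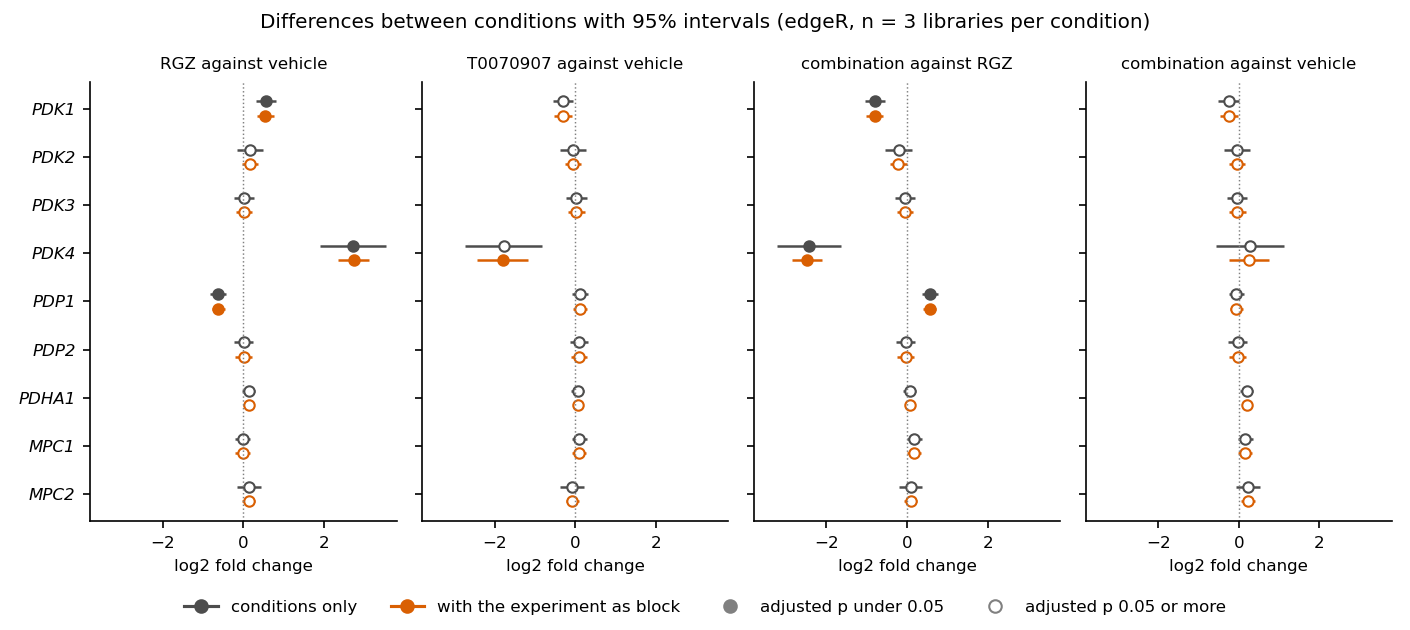
Log2 fold changes of the 9 genes (horizontal axes) with 95% intervals in 4 comparisons, from the fit with the conditions alone (grey) and with the replicate block (orange), where filled points have an adjusted p under 0.05 and n = 3 libraries per condition. Filled points in both fits are seen for *PDK1*, *PDK4* and *PDP1* in RGZ against vehicle and in the combination against RGZ, and the point of *PDK4* at -1.77 for T0070907 is filled only in the fit with the block, at -1.79.

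The substrate of the kinases and the carrier showed no called change. *PDHA1* (NCBI gene 5160, chrX:19343893-19361705, plus strand) had 141, 165 and 147 CPM with vehicle and 156, 179 and 160 CPM with RGZ. *MPC1* (NCBI gene 51660, chr6:166364919-166383013, minus strand) had 24.0, 24.5 and 24.4 CPM with vehicle and 22.0, 24.1 and 25.7 CPM with RGZ. *MPC2* (NCBI gene 25874, chr1:167916729-167937040, minus strand) had 42.8, 54.7 and 43.4 CPM with vehicle and 47.5, 59.6 and 47.6 CPM with RGZ. *PDHA1* and *MPC2* were higher with RGZ within each of the 3 experiments, by ratios of 1.08 to 1.11 and of 1.09 to 1.11, but their conditions overlapped. The log2 fold change was 0.13 for *PDHA1* (95% interval -0.03 to 0.29), -0.02 for *MPC1* (95% interval -0.21 to 0.17) and 0.13 for *MPC2* (95% interval -0.16 to 0.42). With the block the adjusted p was 0.223, 0.914 and 0.328 in edgeR, respectively. *MPC2* shares 575 of its 2552 exon bases with *DCAF6* on the opposite strand, a gene at 42.7 to 62.1 CPM, so part of its counts may belong to that gene. *PDHA1* likewise shares 956 of its 4493 exon bases with *MAP3K15* on the opposite strand, which did not exceed 0.357 CPM in any library.

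Levels of different genes were compared per kb of the longest annotated transcript, with vehicle. *PDHA1* was the most abundant at 43.3 ± 3.65 CPM per kb (mean ± SD, n = 3), followed by *PDP1* at 28.1 ± 0.676. The carriers *MPC2* and *MPC1*, at 21.6 ± 3.09 and 20.4 ± 0.240 CPM per kb, overlapped with each other. *PDK2* at 6.77 ± 1.31 and *PDP2* at 5.85 ± 0.377 CPM per kb also overlapped. *PDK3* at 4.34 ± 0.316, *PDK4* at 2.66 ± 0.536 and *PDK1* at 1.23 ± 0.0671 CPM per kb came last, without overlap between neighbours. In vehicle, 27.3% of the 13304 genes with a length had a level per kb as low as that of *PDK4* or lower, against 87.0% for *PDHA1*. This order holds for the longest transcripts only. The longest transcript of *PDK1* has 14193 bases and the median of its 9 transcripts has 728. With the median transcript length, *PDP2* (69.9 ± 4.51 CPM per kb) came above *MPC1* (25.2 ± 0.297) and overlapped with *MPC2* (58.9 ± 8.42), *PDK2* (38.6 ± 7.46) came above *MPC1*, and *PDK1* (23.9 ± 1.31) overlapped with *MPC1* (SD, n = 3). *PDK4* then came above *PDK3*, with 11.5 to 16.9 CPM per kb against 10.3 to 11.9, so that their libraries overlapped.

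Among the kinases, RGZ moved *PDK4* from a minor to the leading mRNA. *PDK4* made up 15.9%, 15.5% and 21.9% of the summed level per kb of *PDK1* to *PDK4* in the vehicle libraries, and *PDK2* was the largest share at 44.9% ± 5.46 (SD, n = 3). In the RGZ libraries *PDK4* made up 53.0%, 56.5% and 57.9%. The summed level of the kinases was 15.0 ± 1.10 CPM per kb with vehicle and 31.3 ± 3.36 with RGZ (SD, n = 3). The sum for the kinases divided by that for *PDP1* and *PDP2* was 0.442 ± 0.0420 with vehicle and 1.31 ± 0.206 with RGZ (SD, n = 3). These sums are descriptions over genes read from the same libraries and were not tested. With the median transcript length, *PDK1* came above *PDK4* in vehicle, with shares of 27.5% ± 1.07 and 15.8% ± 3.25, and *PDK4* still led with RGZ at 50.2% ± 2.55 (SD, n = 3).

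**Figure D3:**
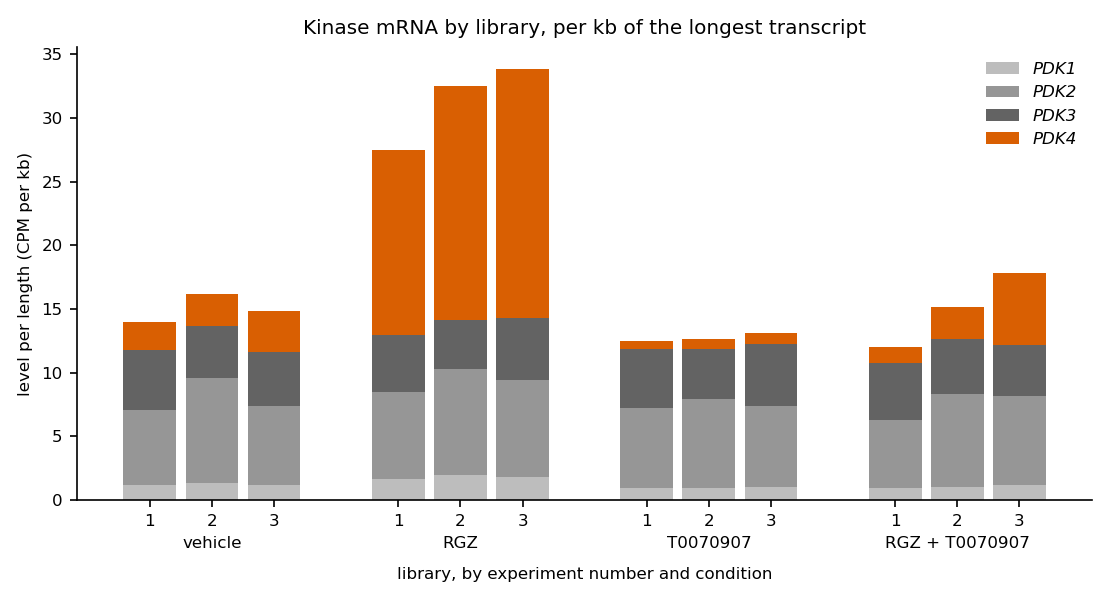
Summed level of *PDK1*, *PDK2*, *PDK3* and *PDK4* in CPM per kb of the longest transcript (vertical axis) in each of the 12 libraries, ordered by condition and experiment. The orange part, *PDK4*, is the largest in the 3 RGZ libraries and small with T0070907, and it differs most between libraries in the combination, from 10.9% to 32.1% of the bar.

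T0070907 alone left *PDK4* at 2.31, 2.86 and 3.10 CPM, from counts of 20, 32 and 36. All 3 libraries were below the lowest vehicle library of 7.95 CPM, and the level was 3.44, 3.11 and 3.76 times lower than with vehicle within the experiments. With the conditions alone the difference was not called (log2 fold change -1.77, SE 0.44, adjusted p = 0.808 in edgeR), where 0.0074% of all tested genes were. With the block *PDK4* fell (log2 fold change -1.79, SE 0.30, adjusted p = 0.00509 in edgeR), as the only one of the 9 genes, and 0.910% of all tested genes were called. This call was lost without the T0070907 library of experiment 3 (log2 fold change -1.65, adjusted p = 0.138) and kept without any of the other 5 libraries. *PDK1* had 13.6, 13.7 and 14.9 CPM, also below its 3 vehicle libraries, with a log2 fold change of -0.30 that was not called in either fit (adjusted p = 1.00, and 0.258 with the block, in edgeR). *PDP1* had 128, 141 and 131 CPM, above its 3 vehicle libraries, and was not called, at a log2 fold change of 0.12. The remaining 6 genes had log2 fold changes between -0.07 and 0.10.

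When T0070907 was added to RGZ, *PDK4* and *PDK1* fell and *PDP1* rose relative to RGZ alone. This comparison shares the RGZ libraries with the comparison of RGZ and vehicle, so the values are given side by side. *PDK4* had 4.69, 9.26 and 20.5 CPM in the combination, all below the lowest RGZ library of 52.1 CPM, and its log2 fold change was -2.44 (SE 0.36, adjusted p = 0.00873 in edgeR). *PDK1* had 13.1, 14.0 and 16.7 CPM, all below the lowest RGZ library of 23.5 CPM, and its log2 fold change was -0.80 (SE 0.11, adjusted p = 0.00738). *PDP1* had 112, 134 and 106 CPM, all above the highest RGZ library of 83.1 CPM, and its log2 fold change was 0.56 (SE 0.09, adjusted p = 0.0108). Of all tested genes, 1.24% were called here with the conditions alone and 11.4% with the block, where the 3 genes were called too, with adjusted p-values of 6.07e-08, 2.78e-05 and 1.25e-04. In a fit of only the RGZ and combination libraries, none of the 3 was called, with adjusted p-values of 0.0668 for *PDK4* and *PDK1* and 0.0918 for *PDP1*. Without the combination library of experiment 3, the log2 fold change of *PDK4* was -3.15.

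Compared with vehicle, the combination gave no call among the 9 genes, and 0% of all tested genes were called with the conditions alone and 0% with the block. At an unadjusted p under 0.05, edgeR had 1438 genes without and 2868 with the block, and DESeq2 called 227 genes with the block. *PDK4* lay around its vehicle level, with ratios to vehicle of 0.591, 1.04 and 1.76 in the 3 experiments and a log2 fold change of 0.28 (95% interval -0.55 to 1.12). The spread of *PDK4* in the combination, 11.5 ± 8.12 CPM (SD, n = 3), was the widest of the 4 conditions relative to its mean, and without the library of experiment 3 the log2 fold change turned to -0.43. *PDK1* was below vehicle in each experiment, with ratios of 0.790, 0.758 and 0.973, and its log2 fold change was -0.25 (95% interval -0.50 to 0.0020, and -0.48 to -0.030 with the block), not called in either fit (adjusted p = 0.473, and 0.184 with the block, in edgeR). *PDHA1* had 179, 173 and 168 CPM and *MPC1* 27.3, 26.7 and 27.5 CPM, all above their vehicle libraries, with log2 fold changes of 0.20 and 0.16 that were not called in either fit (adjusted p = 0.453 and 0.508, and 0.105 and 0.271 with the block, in edgeR). *MPC2* was higher than vehicle in each experiment too, by ratios of 1.30, 1.06 and 1.18, but its libraries overlapped. Its log2 fold change of 0.23 was not called in either fit (adjusted p = 0.551, and 0.121 with the block, in edgeR). With the block and without the combination library of experiment 2, *PDHA1* and *MPC2* were called, when 2594 genes were called in all. Without the vehicle library of experiment 2, *PDHA1* alone was called among the 9, when 873 genes were called.

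RGZ in the presence of T0070907 was also compared with T0070907 alone. *PDK4* was higher in the combination in each experiment, 2.03, 3.23 and 6.60 times, and the libraries did not overlap. The log2 fold change of 2.05 was called with the block (SE 0.29, adjusted p = 4.41e-04 in edgeR) and not with the conditions alone (SE 0.43, adjusted p = 0.214), for which 0.0370% of all tested genes were called against 8.76% with the block. *MPC2* had 38.4, 52.0 and 43.3 CPM with T0070907 and 55.6, 57.8 and 51.4 CPM in the combination, and it too was called only with the block (log2 fold change 0.30, SE 0.08, adjusted p = 0.0242). The *MPC2* libraries of these conditions overlapped, and its call was lost without any of 4 of the 6 libraries, the T0070907 libraries of experiments 1 and 2 and the combination libraries of experiments 1 and 3. For *PDK1* and *PDP1* the log2 fold changes were 0.05 and -0.18, not called in either fit. With the block and without the combination library of experiment 2, *PDP1* (log2 fold change -0.29) and *PDHA1* were called as well, when 3342 genes were called in all. With the conditions alone, *PDK4* was called when the combination library of experiment 1 was left out (adjusted p = 0.0176). The size of the difference rests in part on the combination library of experiment 3, without which the log2 fold change was 1.34 with the conditions alone (adjusted p = 0.464) and 1.45 with the block (adjusted p = 0.00190).

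Whether the effect of RGZ itself differed with and without T0070907 was tested by the interaction of both compounds. None of the 9 genes was called, and 0% of all tested genes were called with the conditions alone, where 406 had an unadjusted p under 0.05, and 0.281% with the block. The interaction was 0.44 on the log2 scale for *PDP1* (SE 0.12, adjusted p = 1.00, and 0.126 with the block, in edgeR), -0.50 for *PDK1* (SE 0.16, adjusted p = 1.00, and 0.218 with the block) and -0.67 for *PDK4* (SE 0.57, adjusted p = 1.00, and 0.574 with the block). For *PDK4* this means that the step from T0070907 to the combination, 2.05, and the step from vehicle to RGZ, 2.72, were not told apart by these libraries. With the block and without the combination library of experiment 3 the interaction of *PDK4* was -1.27 (adjusted p = 0.0398), and without that of experiment 1 the interaction of *PDP1* was 0.47 (adjusted p = 0.0109).

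The other genes of the pathway had smaller log2 fold changes than *PDK4* with RGZ. The lists comprised the pyruvate dehydrogenase complex, its phosphatases, the kinase family with the related *BCKDK*, the carriers, enzymes that make or otherwise use pyruvate, the citrate cycle, the branched-chain ketoacid dehydrogenase, a sister complex, and described regulators of *PDK* genes. In the complex, 8 of 9 genes were tested, the median log2 fold change with RGZ was 0.02 against -0.01 over all tested genes, and none was called with the conditions alone. With the block, in which 9.30% of all tested genes were called, 1 of the 8 was called, a share near this background. It was *PDHX*, the binding protein of the complex, which fell from 67.2, 64.0 and 72.0 CPM to 59.4, 51.7 and 63.8 CPM (log2 fold change -0.22, adjusted p = 0.0466 in edgeR). Among 13 tested genes that make or otherwise use pyruvate, 1 was called, only with the block and so not above the 9.30% of all tested genes. This was *PC*, pyruvate carboxylase, which makes oxaloacetate from pyruvate and rose from 26.9, 31.8 and 35.1 CPM to 34.6, 41.2 and 44.1 CPM (log2 fold change 0.35, adjusted p = 0.00678). The median of these 13 genes was 0.09. In the citrate cycle 17 genes were tested with a median of 0.04, and 1 was called, only with the block, again not above the 9.30% of all tested genes. It was *IDH2*, the NADP-dependent mitochondrial isocitrate dehydrogenase, which fell from 21.6, 25.9 and 28.7 CPM to 15.4, 19.2 and 15.1 CPM (log2 fold change -0.62, adjusted p = 8.95e-04).

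None of the 5 tested genes of the branched-chain complex list, *BCKDK* included, was called with RGZ in either fit, and their median was -0.15. The kinase family as a whole had 2 of 5 genes higher in both fits, *PDK4* and *PDK1*, where 1.24% of all tested genes were called with the conditions alone and 9.30% with the block, while *BCKDK*, which phosphorylates the branched-chain complex, had a log2 fold change of 0.11 (adjusted p = 0.724 in edgeR). Among 14 tested regulators described for *PDK* genes, 2 rose in both fits, which with the block is a share near the 9.30% of all tested genes, and the median was -0.04. *ESRRA*, the orphan receptor ERRα, a described activator of *PDK4*, rose from 65.3, 66.6 and 69.4 CPM to 82.4, 96.5 and 87.7 CPM (log2 fold change 0.40, SE 0.07, adjusted p = 0.0235). *MYC* rose from 21.1, 18.8 and 18.1 CPM to 36.0, 36.2 and 29.5 CPM (log2 fold change 0.81, SE 0.11, adjusted p = 0.00461). In the combination *ESRRA* had 71.0, 65.2 and 70.2 CPM and *MYC* 21.5, 18.9 and 23.0 CPM, below the RGZ libraries in every case. These were the 2 of the 14 regulators that were called lower in the combination than with RGZ with the conditions alone. With the block, where 11.4% of all tested genes were called, 5 were lower and 1 was higher. The 4 others, named after their values were seen, were *PPARGC1B* (log2 fold change -0.54), *HIF1A* (-0.35) and *EPAS1* (-1.05), all lower, and *PPARG* (0.20), which was higher, with adjusted p-values between 0.00472 and 0.0490 in edgeR.

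**Figure D4:**
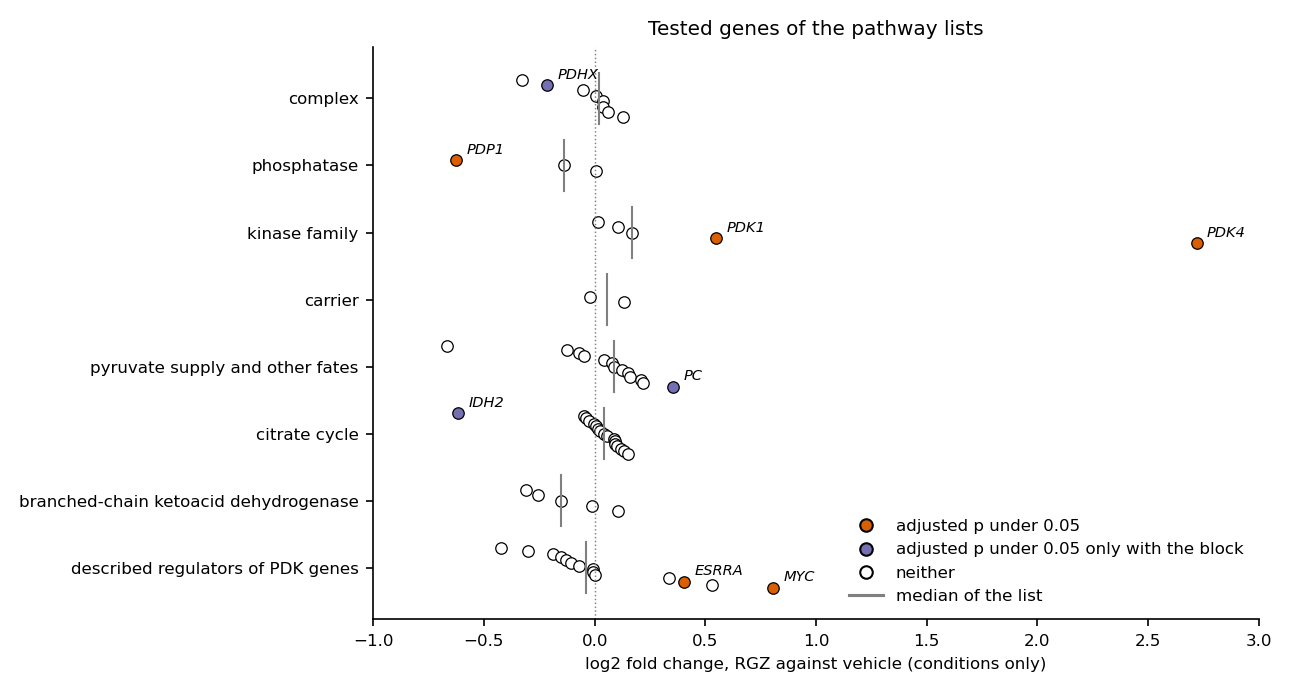
Log2 fold change for RGZ against vehicle from the fit with the conditions alone (horizontal axis) of each tested gene of the 8 pathway lists, with a vertical line at the median of each list. *PDK4* stands at 2.72, and all other genes of the lists lie between -0.67 and 0.81, most of them without a call in either fit.

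Some genes followed *PDK4* closely over the 12 libraries. The likeness was measured as Pearson's r of log2 CPM after the mean of each experiment was subtracted, among the 13217 genes whose mean level reached 1 CPM, and it is a description with no test, since the libraries share their treatments. The closest was *KLF4*, a zinc finger transcription factor, with r = 0.996. Next came the lipid droplet genes *PLIN4* (r = 0.993) and *PLIN2* (r = 0.992), the syntenin gene *SDCBP* (r = 0.991) and the phospholipid remodeling enzyme *LPCAT3* (r = 0.991). Their range of change was unlike: *PLIN4* rose with RGZ by 4.13 on the log2 scale, *PLIN2* by 2.62, *KLF4* by 1.43 and *LPCAT3* by 0.96, all called in both fits, while *SDCBP* had a log2 fold change of 0.26 that was called only with the block. The combination library of experiment 3, the highest of its condition for *PDK4* at 20.5 CPM, was also the highest for *PLIN2*, at 737 CPM against 362 and 454 CPM, for *PLIN4*, at 16.3 CPM against 5.56 and 13.6 CPM, for *KLF4*, at 22.1 CPM against 12.5 and 19.9 CPM, and for *LPCAT3*, at 86.6 CPM against 69.4 and 77.4 CPM. *SDCBP* was highest in experiment 2 instead, at 175 CPM against 144 and 150 CPM in experiments 1 and 3. Without the subtraction, 3 of these 5 genes were again among the closest.

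For *PDP1*, the member with the next smallest p for RGZ after *PDK4*, the closest genes were *NFATC2* (r = 0.995), *ABCA13* (r = 0.992), *SYNM* (r = 0.989), *SLC26A2* (r = 0.984) and *ERBB3* (r = 0.981). They encode a transcription factor activated by calcineurin, an ABC transporter, an intermediate filament protein, a sulfate transporter and a receptor tyrosine kinase. All 5 were lower with RGZ, with log2 fold changes between -1.79 for *ABCA13* and -0.49 for *SYNM*, and all were called only with the block. These genes differed between experiments far more than *PDP1* did, for example *NFATC2* with 65.2, 25.0 and 108 CPM in vehicle against 126, 122 and 120 CPM for *PDP1*. Without the subtraction of the experiment means, 0 of these 5 remained among the closest genes.

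**Figure D5:**
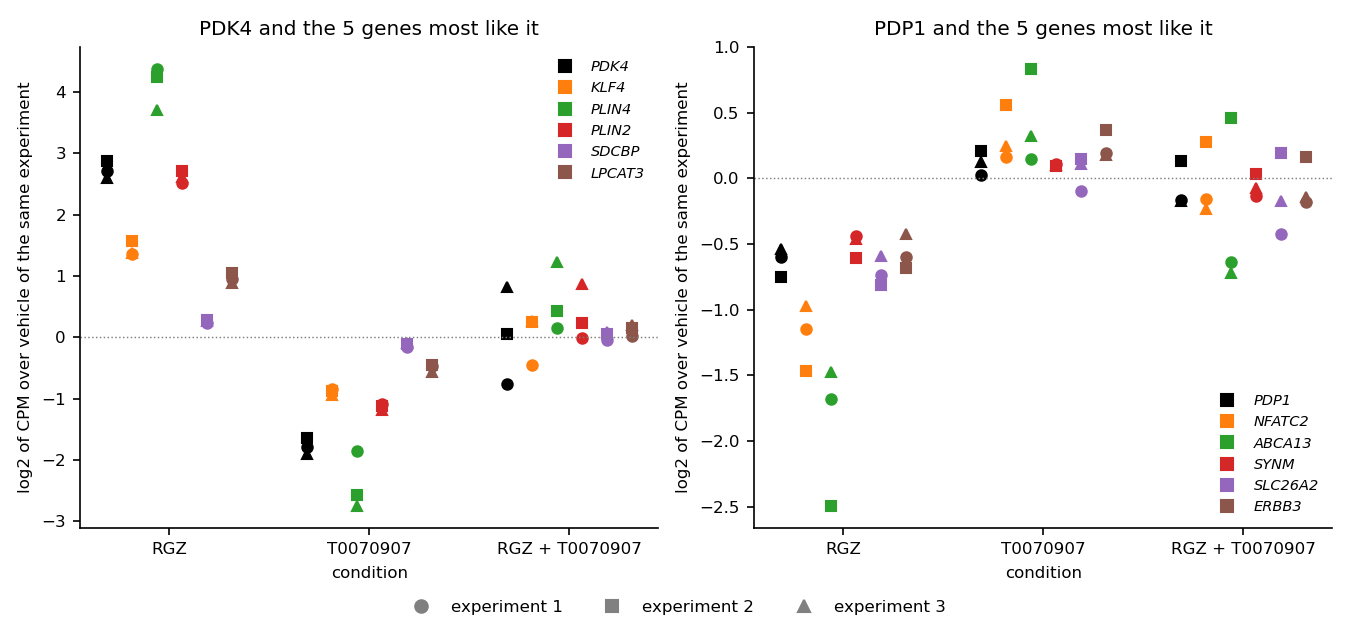
Log2 of the level over that of vehicle in the same experiment (vertical axes) for *PDK4* (left) and *PDP1* (right), each with the 5 genes most like it, in the RGZ, T0070907 and combination libraries, with a marker for each experiment. *PDK4* stands at 2.59 to 2.88 with RGZ and at -1.91 to -1.64 with T0070907, and *PDP1* at -0.75 to -0.54 with RGZ.

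Markers of the lineage and of other cell types were read in the same libraries. The 8 melanocyte markers, of which 4 were tested, summed to 281 to 498 CPM with vehicle and 229 to 422 CPM with RGZ, and the 4 markers of dedifferentiated melanoma summed to 656 to 824 CPM and 482 to 674 CPM. Of 3 keratinocyte markers 2 were tested, and their summed level was 14.3 to 33.4 CPM with vehicle and 6.51 to 16.6 CPM with RGZ, with *KRT1* at 0 in every library. The 4 fibroblast markers summed to 13.1 to 33.6 CPM with vehicle and 9.64 to 21.6 CPM with RGZ, with *COL1A2* at no more than 0.462 CPM, and the 3 endothelial markers never exceeded 2.50 CPM in sum. The 3 leukocyte markers summed to 35.5 to 73.8 CPM with vehicle and 49.6 to 97.3 CPM with RGZ, nearly all from *CD68*, while *PTPRC* did not exceed 0.210 CPM. With the block, in which 9.30% of all tested genes were called, 2 of the 4 tested melanocyte markers were lower with RGZ, *S100B* (log2 fold change -1.02) and *MITF* (-0.34). Among the 4 markers of dedifferentiated melanoma, *NGFR* (-1.18) and *AXL* (-0.22) were lower and *SOX2* (0.37) higher in that fit, with adjusted p-values for these 5 genes between 3.73e-05 and 0.0434 in edgeR. None of them was called with the conditions alone. Of the other cell types' markers, with the block, *KRT14* and *COL1A1* were lower and *CD68* higher with RGZ (log2 fold changes -0.94, -0.76 and 0.42, with adjusted p-values of 1.82e-04, 6.72e-04 and 8.27e-04 in edgeR). The part of these markers in the changes of *PDK4*, *PDK1* and *PDP1* was not tested. In RNA from a whole culture, fewer cells with a transcript and less of it per cell cannot be told apart.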

How the data were processed

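The deposited values were raw counts of 12 RNA-seq libraries, which the authors listed by NCBI gene number with no normalization. Labels name TruSeq libraries and the genome build hg19; the aligner, the counting tool and the use of strand are not given in the sources used here. Gene symbols were found for 23538 of 23705 gene numbers, and 0 columns belonged to other samples.

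The fits used edgeR 4.0.16 under R 4.3.3 (TMM, filterByExpr, quasi-likelihood test on the 4 conditions, all 12 libraries). Standard errors and intervals are approximate, computed from the log2 fold change and the F statistic. The experiment number in the labels marks an independent experiment and so pairs the libraries. Deviations from the condition means correlated at 0.554 on average within an experiment (lowest 0.0793, highest 0.758). The mean of -0.270 between experiments follows from this, because the deviations of a condition's libraries cancel out, and it adds no further evidence. The common dispersion was 0.0193 without and 0.00333 with the block. Alternatives used DESeq2 1.42.0, limma-voom 3.58.1, other filters and scaling, and left out libraries. The fits were also run on simulated counts with known changes. Their spread and sizes of change were set in advance and not taken from these genes, and no result here rests on that run. With the conditions alone, p-values measure the spread between these experiments. With the block, they measure the spread left after the differences between experiments were taken out. Floors cover counting error only.

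The 9 genes, the pathway lists and the marker lists were chosen with earlier results of these data known. Named were the 9 genes, list genes called for RGZ in either fit, and the 5 genes most like *PDK4* and *PDP1*. Gene models came from GENCODE release 29 and promoters from RefSeq, both on GRCh38, and were matched by gene and not by the coordinates of the counts.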

Additional observations from a re-analysis of the deposited data

How the results depend on the processing

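Each comparison was recomputed with DESeq2's size factors, without the filter, with at least 10 counts in every library, with DESeq2, with limma-voom, with only the compared conditions, with the replicate block in 3 tools, and without each library. The fits that combine the replicate block with leaving out a library were chosen after seeing the data. Single values were recomputed for all 9 genes for RGZ against vehicle, and otherwise for *PDK4*, *PDK1* and *PDP1* and for *MPC2* in the combination against T0070907. Of these 558 values, 502 kept their direction and side of the threshold. For T0070907 against vehicle, 0 of the 9 genes were called, but DESeq2 and each of the 3 tools with the replicate block called 1, *PDK4*, and leaving out libraries gave 0 to 1. For the combination against T0070907, 0 were called with the conditions alone and 2 with the block in each tool, and 0 to 4 without single libraries. For the combination against RGZ, 3 became 0 with only the compared conditions, where fewer libraries entered the fit. With the block and without single libraries, the combination against vehicle had 0 to 2 called genes and the interaction 0 to 1. None of these that was called changed sign. Uncalled ones that did, without single libraries and with the conditions alone, were those for RGZ of *PDK3* (-0.060 to 0.099), *PDP2* (-0.072 to 0.049) and *MPC1* (-0.074 to 0.036), those for the combination against vehicle of *PDK4* (-0.43 to 0.64) and *PDP1* (-0.17 to 0.0060), and that for the combination against T0070907 of *PDK1* (-0.056 to 0.12). With the block these reversed values were -0.035 and -0.057 for *PDK3*, -0.054 and -0.097 for *PDP2*, 0.00043 and 0.020 for *MPC1*, -0.33 for *PDK4*, 0.0046 for *PDP1* and -0.049 for *PDK1*. The causes were not tested. Among all tested genes, the block moved the calls for RGZ from 167 to 1258, for T0070907 from 1 to 123, for the combination against RGZ from 167 to 1545 and against T0070907 from 5 to 1185; DESeq2 without it called 302, 21, 318 and 83, and only the compared conditions gave 69, 1, 41 and 0. The block changed no other call among the 9 genes. The lowest counts of the 9 genes were those of *PDK4* with T0070907, 20 to 36.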
